A study of Mus musculus with 2 samples.

Results

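The core spliceosome genes described here are 45 genes that encode protein parts of the major spliceosome. They were chosen for their part in the machine, though with earlier results of these data known. All 45 were found by gene ID among the 24532 gene IDs of the deposited tables, at levels of at least 1 TPM (transcript abundance scaled for length and library total) in both libraries. RNA-seq was made on sorted CD69+ DP thymocytes, immature T cells that carry both CD4 and CD8, of C57BL/6 mice 6 weeks old. One library is labelled wild-type (NSRP1f/f, floxed alleles with no Cre named) and one KO (NSRP1f/fCD4Cre, the same floxed alleles with a Cre that carries the name of CD4), 2 libraries in all. Whether a library holds 1 animal or several is not given in the labels. The product of Nsrp1, NSrp70, is a splicing regulator of nuclear speckles, and the design sets RNA with and without its conditional deletion side by side.

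The spliceosome removes introns from pre-messenger RNA. Sm proteins form a ring on the small nuclear RNAs, the U1 particle recognises the 5' splice site, and the U2 particle with its partners recognises the branch point and the 3' splice site. The U4/U6.U5 tri-snRNP and the NTC, the complex named after Prp19, then build the catalytic centre, while RNA helicases drive each rearrangement. Proteins of this machine are needed in every cell, and several of their genes make transcripts that do not encode the full protein.

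With 1 library a genotype no test was made, and nothing below has a replicate check. Intervals are 95% exact ones for read pairs estimated from coverage, Poisson for a level and binomial (Clopper-Pearson) for a ratio or a share, and they cover counting error only. Nsrp1 RNA was level, with 29.7 TPM (27.7 to 31.9) under the wild-type label and 29.6 TPM (27.9 to 31.5) under the KO label. The level of the targeted gene thus gives no check of the labels, and every direction below is between libraries as they are labelled. Aligned reads covered annotated exons with 4199 and 5076 megabases. All 10 markers of the sorted cells were present, among them Cd4 at 725 and 663 TPM and Cd8a at 1138 and 1151 TPM. Of the other cell types checked, B cell markers summed to 53.6 and 62.1 TPM, myeloid and dendritic markers to 95.1 and 81.1 TPM and erythroid markers to 1.36 and 3.08 TPM, and epithelial and stromal markers to 127 and 113 TPM. Of the last, Pecam1 alone, also an endothelial and leukocyte marker, had 119.5 and 103.7 TPM and Epcam 6.87 and 8.35 TPM, while 5 of 9 were at 0 in both. The 15 G2/M genes were all higher in the KO-labelled library, with a summed level of 486 and 899.6 TPM. The heat shock genes Hspa1a (467 and 0.525 TPM) and Hspa1b (493 and 0.558 TPM) were far lower there. The part of these differences in the values below was not tested. In bulk RNA, more cells of a kind and more RNA per cell cannot be told apart. The female-specific RNA Xist stood at 202 and 76.3 TPM and the Y-linked Ddx3y at 31.1 and 71.2 TPM. Each library thus held both, in different proportions. Effects of the mix of sexes and of the genotype cannot be told apart.

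On the scale of log2((TPM + 1) KO / (TPM + 1) wild-type), called the log2 fold change from here on, they ran from -0.31 for Prpf8 to 0.38 for Snrpd1, with a median of 0.0027. The median of all 12029 genes tested, those that reached 1 TPM in a library, was -0.07. None of the 45 reached 0.5 in size, which 9.78% of all genes did (3.37% upward and 6.42% downward), or 3.52% of the 5996 genes that, like all members, had at least 27 TPM in both libraries. None reached 1 either, against 2.03% of all genes (0.657% upward and 1.37% downward). In all, 23 members lay above 0 and 22 below, where 38.5% of all genes lay above, and 41.8% of those with at least 27 TPM in both. A size of 0.25, chosen after the values were seen, was reached upward by 9 members and downward by 3, against 9.85% and 23.7% of all genes. Together these are 12 of 45, and 23.7% of genes at 27 TPM or more in each library reached that size, so members differed about as often as genes of such levels. The interval of the ratio lay above 1 for 18 members, below 1 for 15 and held 1 for 12, while it lay above 1 for 16.3% of all genes and below 1 for 35.1%. Among genes with at least 27 TPM in both, these shares were 23.5% and 41.4%.

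What stood out was an order among the groups. The median log2 fold change was 0.26 for Sm genes and 0.26 for U1 genes. It was lower for the U2 and 3' splice site genes (0.0039), the NTC and second-step genes (0.03), the tri-snRNP genes (-0.06) and the helicase genes (-0.14). All 7 Sm genes were higher in the KO-labelled library under every scaling tried, and all 7 helicase genes were lower in TPM, though 3 of 7 lay above 0 in FPKM and 1 of 7 with a median-ratio scaling. Of all genes, 38.5% lay above 0 and 61.5% below in TPM. In TPM the ranges of these groups did not overlap (0.15 to 0.38 and -0.26 to -0.04), but against genes of like length, described below, they did. The summed level of the Sm genes was 2396 and 2801 TPM and that of the helicases 1036 and 948 TPM. The other groups spread on both sides of 0.

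**Figure D1:**
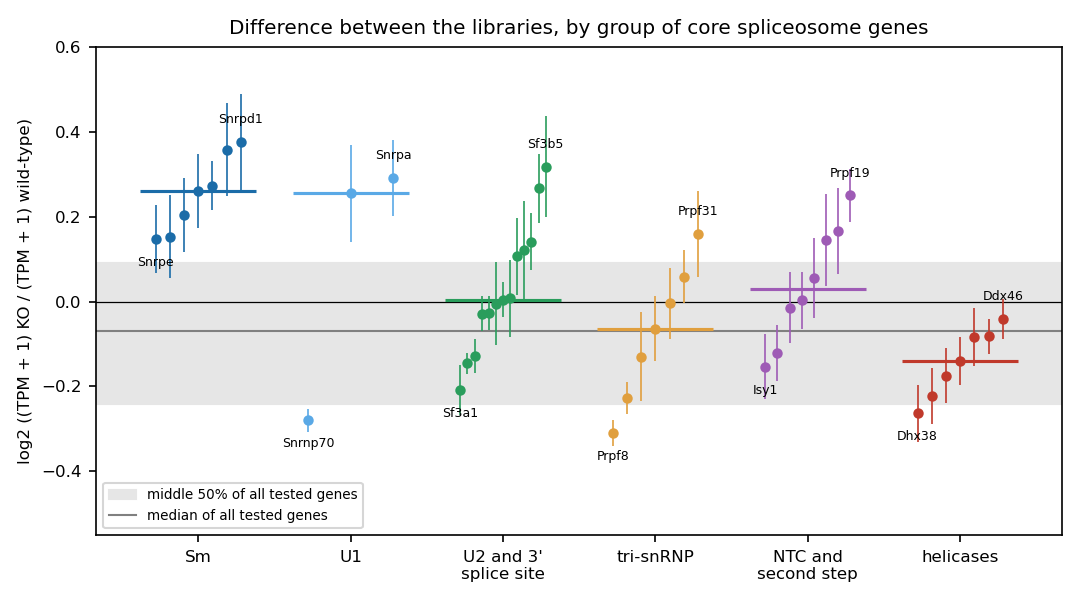
Each point is the log2 fold change of 1 member (y axis) in its group (x axis), with a bar for its counting interval and a thick line for the group's median; the grey band holds the middle 50% of all tested genes. In TPM all 7 Sm genes lie above 0 and all 7 helicase genes below (3 of 7 above 0 in FPKM), and Snrnp70 lies apart from the other 2 U1 genes.

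Transcript length differed between the groups, too. The median length of the most abundant transcript was 604 bases for the Sm genes, 1366 for U1, 1741 for U2 and 3' splice site, 2823.5 for NTC and second-step, 3330 for tri-snRNP and 4190 for the helicases. From the shortest group to the longest the median log2 fold change went down, except that the NTC group (0.03) lay above the U2 group (0.0039). Over the 45 members the log2 fold change went down with the log of that length (Pearson's r = -0.73, Spearman's rho = -0.72), and it did so too over 8147 protein-coding genes at 10 TPM or more in each library (r = -0.50, rho = -0.59). These points share the same 2 libraries, and the correlations are descriptions across genes. Of those protein-coding genes, 84.7% of the ones of up to 1000 bases were above 0, with a median of 0.15, but only 4.3% of the ones over 6000 bases, with a median of -0.29. Each member was therefore also set against the median of the protein-coding genes within 15% of its length, a comparison added after the values were seen. The Sm genes then kept a median difference of 0.10, with 6 of 7 above genes of like length, and the helicases one of -0.063, with 2 of 7 above. The ranges of the groups then overlapped, from -0.013 to 0.23 for Sm and from -0.12 to 0.17 for the helicases. The 45 members had a median of 0.05, with 29 above. The part of transcript length in the differences between groups was not tested further.

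**Figure D2:**
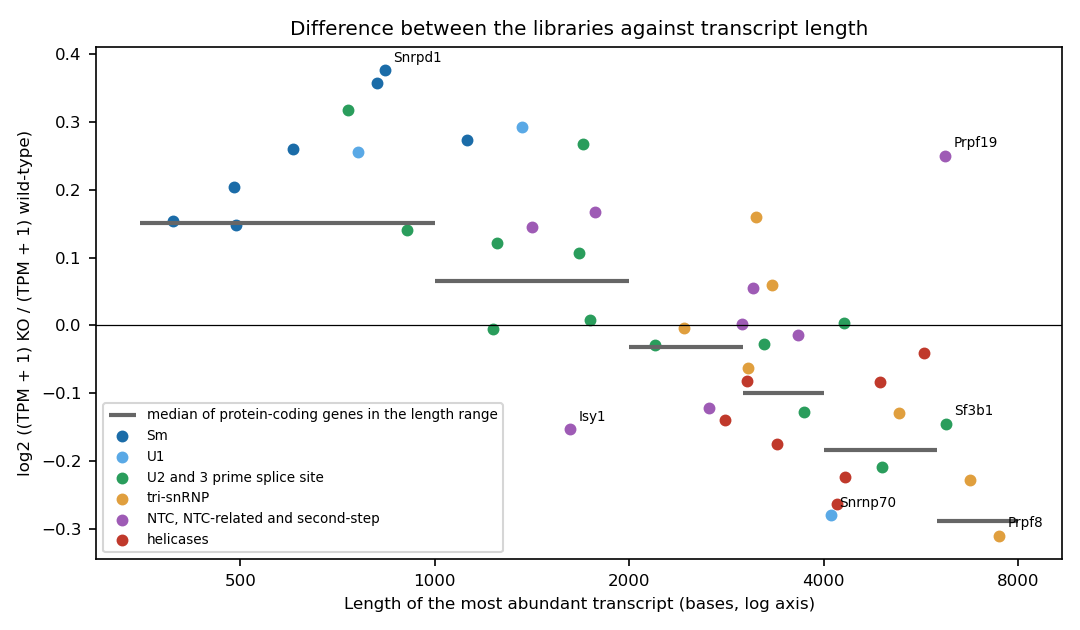
The x axis is the length of each member's most abundant transcript in bases (log axis) and the y axis its log2 fold change; grey lines are medians of protein-coding genes in each length range. Members follow the grey lines downward from 0.15 at up to 1000 bases to -0.29 over 6000 bases, and Prpf19 lies 0.48 above genes of its annotated length, most of which is a thinly covered last exon.

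The Sm genes encode the 7 proteins of the ring that all spliceosomal particles but U6 carry. Snrpd1 (chromosome 18, 10617796 to 10628230 in mm10, plus strand) had the highest log2 fold change of all members, 0.38. It stood at 142 TPM (134 to 151) in the wild-type-labelled library and 185 TPM (176 to 194) in the KO-labelled library. Snrpf followed with 154 TPM (145 to 164) and 198 TPM (189 to 208), a log2 fold change of 0.36. Of the exonic bases of Snrpf, 84.5% overlap the opposite-strand genes Ccdc38 (2.12 and 2.09 TPM) and 4933408J17Rik (0.572 and 0.292 TPM). Where counting does not use strand, reads of these genes and of Snrpf cannot be told apart. Snrpe was the most abundant Sm gene, with 503 TPM (482 to 525) and 558 TPM (538 to 578), and also the least different (log2 fold change 0.15). Among the others, Snrpb stood at 416 and 504 TPM, Snrpd2 at 420 and 484 TPM, Snrpd3 at 332 and 398 TPM and Snrpg at 427 and 475 TPM. In each of the 7 the level was higher in the KO-labelled library by more than the counting error. The interval lay above 1 for 16.3% of all genes, and for 23.5% of those with at least 27 TPM in both. All 7 Sm genes were also higher outside the last exon, with a median log2 fold change of 0.24 there. The higher G2/M genes move in the same direction, and their part in this was not tested.

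**Figure D3:**
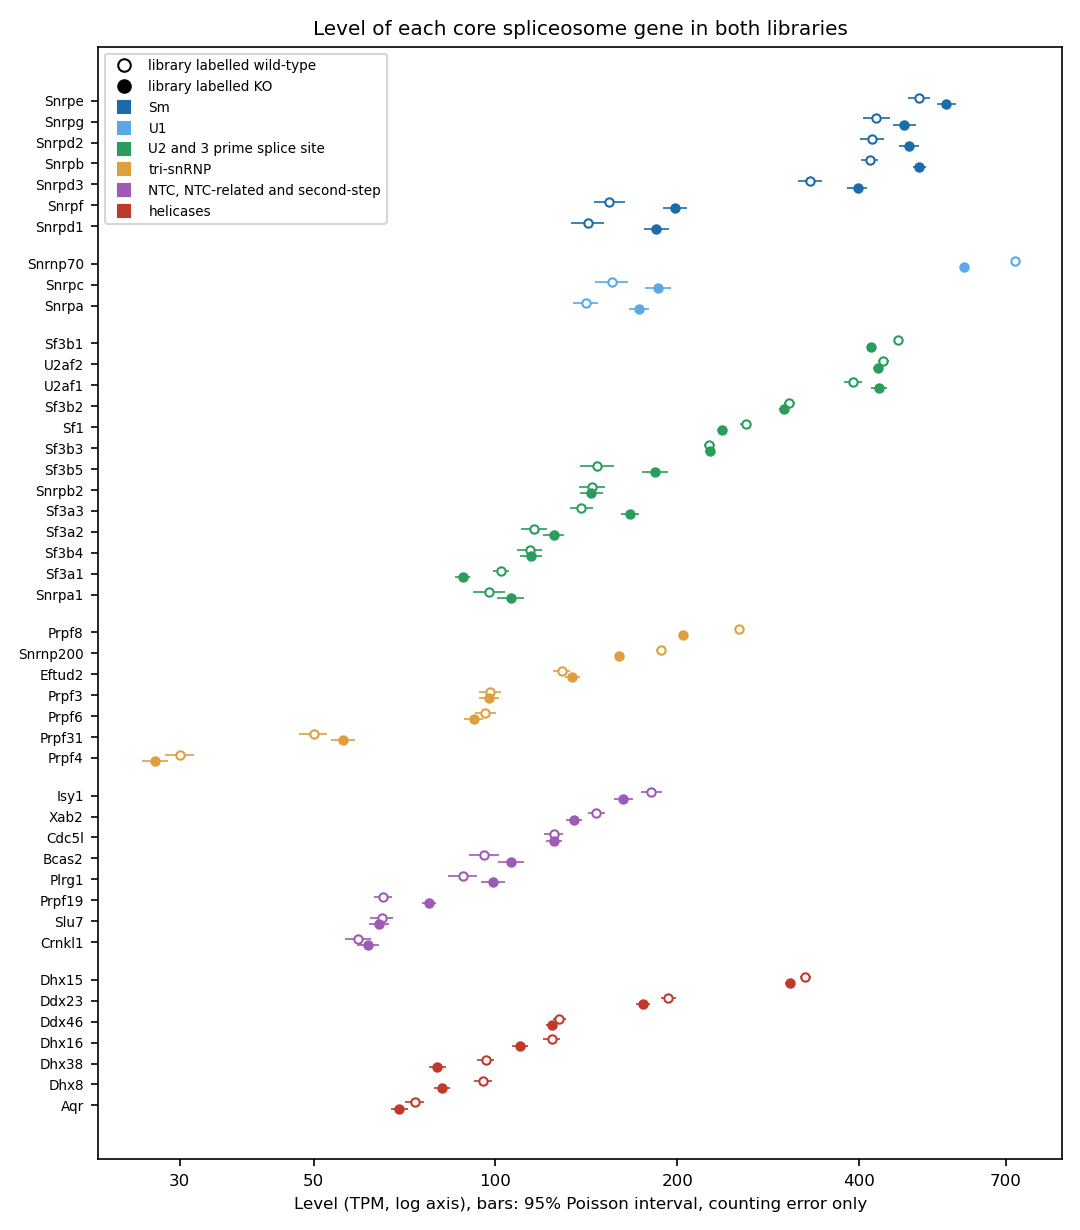
The x axis is the level in TPM on a log axis, with 95% Poisson intervals as bars, and each row is 1 member, open for the wild-type-labelled library and filled for the KO-labelled library. Levels run from 27.3 TPM for Prpf4 to 724 TPM for Snrnp70, and the filled points lie to the right for all 7 Sm genes and, in these TPM values, to the left for all 7 helicases (3 of 7 lay above 0 in FPKM).

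The 3 proteins particular to the U1 particle did not move together. Snrpa, which encodes a U1 protein that binds a stem-loop of the RNA, stood at 141 TPM (134 to 148) and 173 TPM (166 to 180), a log2 fold change of 0.29, and Snrpc, whose product helps U1 hold the 5' splice site, at 156 and 186 TPM (0.26). Snrnp70, which encodes the 70K protein of U1, went the other way and was the most abundant member of all, at 724 TPM (714 to 734) and 596 TPM (588 to 604), a ratio of 0.823 (0.808 to 0.839). Its log2 fold change was -0.28, and -0.35 outside the last exon.

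Most RNA of Snrnp70 (chromosome 7, 45376454 to 45395742 in mm10, minus strand) was assigned to transcripts that RefSeq lists as non-coding. These are NR_126538 and NR_126539, which keep sequence that the protein-coding NM_009224 splices out. They held 72.9% of the TPM of the gene in the wild-type-labelled library and 67.5% in the KO-labelled library. These shares, and the TPM that follow, are the authors' assignment of reads to transcripts. The coding transcript itself stood at 196 and 194 TPM, nearly level. The lower level of the gene was thus assigned to the non-coding transcripts, NR_126539 with 441 and 352 TPM and NR_126538 with 87.0 and 50.5 TPM.

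The 13 genes of the U2 particle and its partners at the 3' splice site lay on both sides of 0, 7 above and 6 below. Sf3b5, a small subunit of the SF3b complex, was the highest, at 147 TPM (138 to 157) and 184 TPM (175 to 193), a log2 fold change of 0.32. It has a single exon. Sf3a1, a subunit of the SF3a complex, was the lowest at 102 TPM (99.1 to 105) and 88.3 TPM (85.8 to 90.8), a log2 fold change of -0.21, and of -0.32 outside the last exon. Its partners differed from it: Sf3a3 stood at 139 and 167 TPM (0.27) and Sf3a2 at 116 and 125 TPM (0.11, and 0.03 outside the last exon). The transcript of Sf3a1 has 4916 bases, those of Sf3a2 and Sf3a3 have 1674 and 1697.

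Sf3b1, which encodes the large SF3b scaffold that holds the branch point, was the most abundant of this group, at 463 TPM (458 to 469) and 419 TPM (414 to 424), a log2 fold change of -0.14. Sf3b2 (307 and 301 TPM), Sf3b3 (226 and 227 TPM) and Sf3b4 (114 and 115 TPM) were level within counting error. Of the U2 particle's own proteins, Snrpa1 stood at 97.4 and 106 TPM, and its binding partner Snrpb2 at 145 and 144 TPM. The branch point protein gene Sf1 stood at 260 and 238 TPM, a log2 fold change of -0.13, and of -0.24 outside the last exon. U2af2, the large subunit of the U2AF factor that binds the polypyrimidine tract, stood at 439 and 431 TPM, and U2af1, the small subunit that reads the AG of the 3' splice site, at 391 and 431 TPM (0.14).

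U2af1 (chromosome 17, minus strand) has a pair of coding exons of 67 bases, of which NM_024187 holds one and NM_001163769 the other. The deposited files list these transcripts alone for the gene, while at least 1 GENCODE transcript holds both exons. They are shown because they are the clearest alternative exons of the 3' splice site factor itself. The letters come from GENCODE M21 transcripts of GRCm38 at the coordinates of the deposited exons, and capitals mark the 23 of 67 bases at which they differ.
NM_024187 exon, chr17:31651646-31651712, minus strand: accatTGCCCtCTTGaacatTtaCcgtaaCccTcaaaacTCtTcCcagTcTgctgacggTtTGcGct
NM_001163769 exon, chr17:31652502-31652568, minus strand: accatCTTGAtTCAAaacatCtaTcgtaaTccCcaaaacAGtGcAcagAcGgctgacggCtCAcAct
The NM_001163769 exon held 17.0% (13.0 to 21.3) of the summed mean coverage of the pair in the wild-type-labelled library and 13.0% (10.1 to 16.3) in the KO-labelled library. The intervals overlap, but they take 202 bases a read pair, more than an exon of 67 bases can hold, so they are likely too wide. Whether the shares differ was not tested. A share of 59.4% of the 50-base words of U2af1 also occurs in other genes, chiefly Gm10232, which leaves its level uncertain.

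Of the 7 tri-snRNP genes, 2 lay above 0, Prpf31 and Eftud2, and 4 did so when FPKM was used in place of TPM. Prpf8, which encodes the protein at the heart of the catalytic centre, had the lowest log2 fold change of all members, -0.31, with 253 TPM (249 to 257) and 204 TPM (201 to 207). It also has the longest transcript of all, 7481 bases, and lay only 0.04 below genes of like length. Snrnp200, the helicase that unwinds U4 from U6, stood at 188 and 160 TPM (-0.23), and Eftud2, the U5 GTPase, at 129 and 134 TPM (0.06). Prpf31, a U4 protein, was the highest at 49.97 TPM (47.3 to 52.7) and 55.9 TPM (53.5 to 58.5), a log2 fold change of 0.16. The U4/U6 proteins Prpf3 (97.9 and 97.7 TPM) and Prpf4 (29.98 and 27.3 TPM) and the U5 protein Prpf6 (96.2 and 92.0 TPM) had log2 fold changes of -0.0042, -0.13 and -0.06, and Prpf4, at -0.27 outside its last exon, was the least abundant of the 45.

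The genes of the NTC, its related proteins and the second-step factor Slu7 held Prpf19, whose value rests in large part on its last exon. Prpf19, the ubiquitin ligase that gives the complex its name, stood at 65.1 TPM (63.0 to 67.3) and 77.6 TPM (75.5 to 79.7), a log2 fold change of 0.25, where genes of like length had a median of -0.23. Isy1 was the lowest of the group, and its most abundant gene, at 181 TPM (174 to 188) and 163 TPM (157 to 169), a log2 fold change of -0.15 against 0.05 for genes of like length. By annotated length Prpf19 thus lay 0.48 above and Isy1 0.21 below genes of their length. Of the 6161 bases of Prpf19, however, 4525 are a last exon with 10.4 and 19.3 TPM-equivalents (coverage scaled as TPM is) against 196 and 215 in the other exons, so the coverage goes against that length for most of its RNA. Outside that exon its log2 fold change was 0.13. Plrg1 (88.2 and 99.1 TPM) and Bcas2 (95.8 and 106 TPM), core NTC proteins, were higher by 0.17 and 0.15, while Cdc5l (125 and 125 TPM), Crnkl1 (59.2 and 61.5 TPM) and Slu7 (64.8 and 64.2 TPM) were level within counting error. Xab2 stood at 147 and 135 TPM (-0.12).

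All 7 helicase genes were lower in the KO-labelled library in TPM, 6 of them by more than the counting error, while 3 of 7 lay above 0 in FPKM. Of all genes, 61.5% lay below 0 in TPM. The interval lay below 1 for 35.1%, or 41.4% of those with at least 27 TPM in both. The helicase transcripts have 2814 to 5715 bases. Of protein-coding genes at 10 TPM or more in each library, 25.6% of those of 3000 to 4000 bases lay above 0. Of those of 4000 to 6000 bases, 12.9% did. Dhx38, which acts before the second step, was the lowest at 96.3 TPM (93.1 to 99.5) and 80.1 TPM (77.5 to 82.7), a log2 fold change of -0.26. Ddx46, which acts on U2 at the branch point, was the nearest to 0 at 127 TPM (124 to 131) and 124 TPM (121 to 127), and its ratio of 0.972 (0.940 to 1.01) held 1. Dhx15, which takes apart spent spliceosomes, was the most abundant at 326 TPM (319 to 333) and 308 TPM (302 to 314). Dhx8, which releases the spliced messenger RNA, stood at 95.3 and 81.5 TPM (-0.22) and Dhx16, which starts the first catalytic step, at 124 and 110 TPM (-0.17). Ddx23, a U5 helicase, stood at 193 and 175 TPM (-0.14), and Aqr, which binds the intron, at 73.5 and 69.3 TPM (-0.08). Outside the last exon all 7 were lower as well, with a median of -0.17, where the median of 11126 genes was -0.14.

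Of the 45 members, 12 have several annotated transcripts, and in 3 of them a transcript's share of the TPM of its gene moved by 10 percentage points or more: Prpf19, Dhx15 and Snrpa. Of all 3032 genes with several transcripts and at least 10 TPM in both libraries, 27.7% did so. A move of 25 points or more was seen in 2 members, Prpf19 and Dhx15, and in 6.63% of all such genes. These shares are estimates by the authors' quantifier, whose error the files do not give, so the mean coverage assigned to the exons that differ is given beside them. By that coverage, the shares of the exon forms of Prpf19 and Dhx15 each moved by less than 25 points. The files give 1 mean for each exon of each transcript, and where forms overlap, the split between them is again the quantifier's estimate. These means are not scaled for library depth (4199 and 5076 covered megabases), so those of the 2 libraries are not on one scale. In both genes the transcripts that traded shares differ at the 5' end of 1 internal coding exon. The exons are shown with the bases that only the longer form holds in capitals, read from the same GENCODE transcripts at the deposited coordinates.
Prpf19 exon of NM_001253843, chr19:10898926-10899124, plus strand: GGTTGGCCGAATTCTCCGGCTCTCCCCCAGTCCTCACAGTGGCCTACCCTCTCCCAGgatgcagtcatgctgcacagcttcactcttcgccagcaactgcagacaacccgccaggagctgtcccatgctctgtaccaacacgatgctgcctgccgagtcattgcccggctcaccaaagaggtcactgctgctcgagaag
Dhx15 exon of NM_007839, chr5:52157455-52157577, minus strand: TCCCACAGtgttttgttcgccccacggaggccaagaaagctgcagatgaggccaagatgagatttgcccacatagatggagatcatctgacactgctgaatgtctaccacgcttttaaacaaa
In both, the capitals end in AG, the letters that close an intron at a 3' splice site. The 57 extra bases of Prpf19 are a multiple of 3 and the 8 of Dhx15 are not.

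In Prpf19 the longer exon was assigned less coverage in the KO-labelled library. The mean coverage of the 199-base form was 129 in the wild-type-labelled library and 52.6 in the KO-labelled library, while that of the 142-base form was 282 and 520. The longer form thus held 31.4% and 9.18% of both, with 289 and 403 estimated read pairs behind these shares. By transcript, NM_001253843 held 52.6% of the TPM of the gene in one library and 14.9% in the other, and NM_134129 with the shorter exon 44.3% and 73.3%. The third transcript, NM_001253844, was given 3.11% and 11.8%, but the 115-base first exon that it alone holds had a mean coverage of only 6.55 and 5.45. The increase of that transcript was therefore not seen in its own exon.

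In Dhx15 the shorter exon was assigned more coverage in the KO-labelled library. The 115-base form is found in NR_104311, which RefSeq lists as non-coding. Its mean coverage was 104 in the wild-type-labelled library and 294 in the KO-labelled library, while the 123-base form had 649 and 656. The shorter form thus held 13.8% and 31.0% of both, with 429 and 541 estimated read pairs behind these shares. As the KO-labelled library was the deeper one, 649 and 656 do not mean that the longer form was level. By transcript, NR_104311 held 13.5% and 42.7% of the TPM of Dhx15, or 44.0 and 131 TPM, and the coding NM_007839 held 72.6% and 45.8%, or 237 and 141 TPM. The forms differ by 8 bases, so only reads that reach this end of the exon can tell them apart.

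In the other members shares moved less. Of the TPM of Snrpa, 31.1% and 14.2% was assigned to NM_001046637, 40.6% and 50.6% to NM_015782 and 28.3% and 35.2% to NM_001285825. In the exon that NM_015782 and NM_001285825 alone hold, mean coverage was 38.8% and 31.8% of that in the bases all 3 transcripts share. The increase of these transcripts was therefore not seen in their own exon. For Sf1 the non-coding NR_122118 held 16.3% and 10.7%. NM_148673 of Slu7, which has an extra 79-base exon, held 31.2% and 25.3%, and that exon had a mean coverage of 45.97 and 33.4. Non-coding transcripts were thus a larger share in the KO-labelled library in Dhx15 and a smaller one in Sf1 and Snrnp70. The remaining members with several transcripts, Aqr, U2af1, Eftud2, Prpf31, U2af2 and Prpf3, moved by 4.08 points or less.

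**Figure D4:**
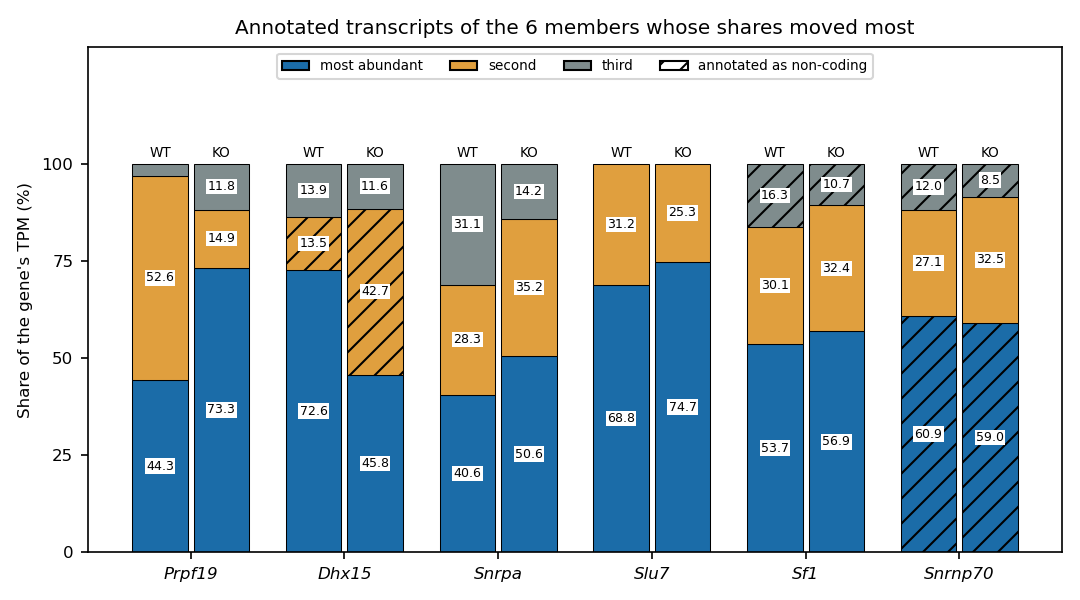
Stacked bars give the share of the TPM of a gene (y axis, in percent) held by each annotated transcript in the wild-type-labelled library (WT) and the KO-labelled library, with non-coding transcripts hatched and transcripts ordered by their mean level. The non-coding transcript of Dhx15 goes from 13.5% to 42.7%, and the coding transcript of Prpf19 with the longer exon from 52.6% to 14.9%. By mean coverage, the exon forms that mark them (not drawn) go from 13.8% to 31.0% and from 31.4% to 9.18%.

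In most members the 3' terminal exon had a higher log2 fold change than the other exons. Of 42 members with 100 or more estimated read pairs in the last exon and in the others, 36 had a higher terminal exon in this sense, with a median log2 difference of 0.16, and the median of all 6781 such genes was 0.19. Only Prpf19 passed 0.5 in size, with 0.70, while 5.87% of all such genes did. That is the long, thinly covered exon described above. The log2 fold change of Prpf19 was thus 0.83 in the last exon and 0.13 in the others. Next came Prpf8, with terminal exon and other exons at log2 fold changes of 0.12 and -0.34, Snrnp200 (0.18 and -0.26), Dhx38 (0.08 and -0.31) and Aqr (0.25 and -0.13). In these 4 genes, the value of the terminal exon lay above 0 while that of the rest of the gene lay below. No counting intervals were computed for these parts. The last exon of Dhx38 rests on 406 and 553 estimated read pairs and that of Prpf8 on 794 and 1114. Their values there may lie within counting error. U2af1 had the lowest value, -0.27, with log2 fold changes of -0.11 in the last exon and 0.16 in the others.

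**Figure D5:**
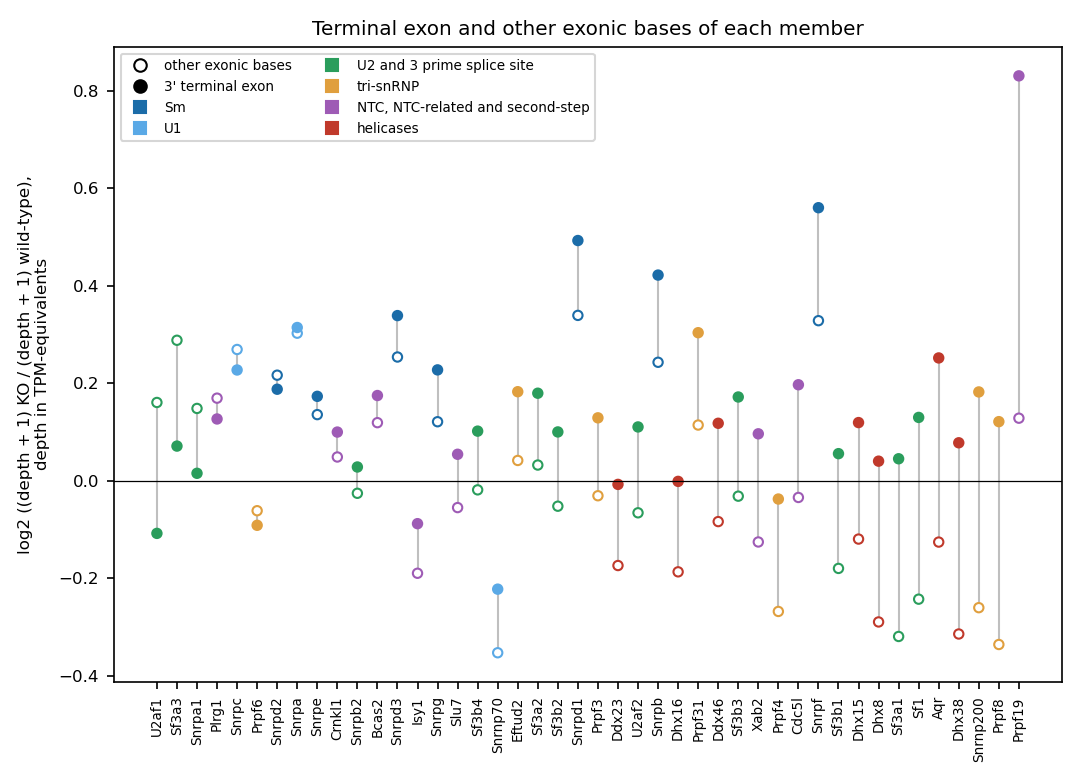
Each column is 1 member with several exons; the y axis is the log2 fold change of depth in TPM-equivalents, filled for the 3' terminal exon and open for its other exonic bases, ordered by the difference. Filled points lie above open ones in most members, and the widest gap, 0.70, is that of Prpf19.

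Other proteins of the splicing machinery were described from 7 lists with 91 genes, 90 of which passed the same filter. Of these, 57 were above 0 and 33 below, with a median log2 fold change of 0.05, and 2 reached 0.5 in size, both upward. Of all genes, 38.5% were above 0 and 9.78% reached 0.5 in size, 3.37% upward. The LSm list holds genes of the ring on U6, with Lsm1 of the cytoplasmic decay ring and Lsm10 and Lsm11 of the U7 particle, and 9 of 10 were above 0, with a median of 0.14, and their median transcript length of 890.5 bases is also short. Against genes of like length their median was 0.03. Lsm2 was the highest at 55.6 and 74.2 TPM (0.41) and Lsm11 the lowest at 9.55 and 7.77 TPM (-0.27).

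In the list for assembly of the particles 12 of 18 genes were above 0 (median 0.05). Gemin6, a part of the SMN complex that loads the Sm ring, was at 18.5 and 28.4 TPM (0.60), and at 0.64 outside its last exon, while Sart3, which recycles U4 and U6, was at 84.1 and 67.9 TPM (-0.30). Of other U1 and U2 proteins 6 of 16 were above 0 (median -0.05), from Ddx42 with 153 and 126 TPM (-0.27) to Phf5a, an SF3b subunit, with 99.2 and 124 TPM (0.32). Of other tri-snRNP and B complex proteins 12 of 16 were above 0 (median 0.05). Cd2bp2 led with 51.4 and 97.5 TPM (0.91), but its value outside the last exon was -0.18, and Prpf38b was the lowest with 300.4 and 255 TPM (-0.23).

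Other NTC-related and catalytic step genes were split, 8 above 0 and 8 below (median 0.01), between Ppil1, a prolyl isomerase, with 69.1 and 95.9 TPM (0.47) and Prpf18, a second-step factor, with 79.1 and 66.7 TPM (-0.24). Minor spliceosome genes, for the rare U12-type introns, had 6 of 8 above 0 (median 0.19), with Rnpc3 at 34.0 and 45.2 TPM (0.40) and Snrnp48 at 71.6 and 61.4 TPM (-0.22). Exon junction complex genes had 4 of 6 above 0 (median 0.13), from Casc3 with 102 and 85.3 TPM (-0.26) to Rbm8a with 64.9 and 76.2 TPM (0.23). The median transcript lengths of these last lists were 1440.5 and 1541 bases. Against genes of like length their medians were 0.058 and 0.059. For the other lists these medians were 0.085 (assembly), -0.031 (U1 and U2), 0.092 (tri-snRNP and B complex) and -0.0076 (NTC-related).

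A feature that the choice of genes did not use is the promoter. Of the 45 members, 36 had an entry in the RefSeq promoter table of GRCm38.p6, and the 250 bases before the start nearest to the most abundant transcript were searched on both strands. The letters CCGGAAG, the core that ETS factors bind, were found in 14 of 36 members (38.9%), against 15.4% of 9377 promoters of tested genes. They were found in 1 of 5 Sm genes and 2 of 5 helicase genes, numbers too small to show whether they follow the order of the groups. The letters CCAAT were found in 41.7% of members and 37.2% of all promoters, and GGGCGG in 52.8% and 59.9%. Motifs named for NRF1 (2.78% and 1.86%), YY1 (0% and 0.736%), TATA (5.56% and 6.3%) and the E box (5.56% and 8.64%) were searched too. The ETS letters thus had the widest difference among several motifs searched. All members had at least 27 TPM in both libraries, while tested genes needed 1 TPM in a library. Whether the ETS difference holds against genes of like level was not tested. A match describes the letters and shows no binding.

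Several members share sequence with other genes, which leaves their levels uncertain. More than 25% of the 50-base words of a transcript also occur in transcripts of other genes for 8 members: Snrpe, Snrpf, Snrpa, Snrpc, Sf3b4, U2af1, U2af2 and Cdc5l. The share was highest in Snrpf (89.5%), through its opposite-strand neighbours, and was 51.2% in Sf3b4 and 40.6% in Cdc5l.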

How the data were processed

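RNA of 2 libraries of sorted CD69+ DP thymocytes was measured, 1 a genotype. The labels' protocols name Trizol extraction and a TruSeq RNA kit. HISAT2, mm10 and GRCm38 are named in the submitters' processing notes, without a version of HISAT2, and RefSeq transcripts were quantified by the authors with StringTie 1.3.3b, per the file headers. The deposited tables give TPM, FPKM and coverage per gene, and the deposited transcript files give TPM, FPKM and coverage per transcript and a mean coverage for each exon of each transcript. Whether counting used strand: not given in the sources used here.

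TPM of rows with one gene ID were summed. Read pairs were estimated as covered bases divided by 202, taken as 2 mates of 101 bases. For a single exon shorter than that, this can give too few pairs. The comparison was log2((TPM + 1) KO / (TPM + 1) wild-type), a pseudocount of 1 that understates low genes, for genes that reached 1 TPM in a library. Sizes of 0.5 and 1 are rules of size, not tests. Terminal exons are those of the most abundant transcript, and mean exon coverage was summed over transcripts. The calculation of fold values and intervals was run on simulated read pairs. These were drawn as Poisson counts, which the intervals assume, so the run cannot show the error of real pairs estimated from coverage. The members, lists and rules were chosen with earlier results of these data known. Full values were given for the highest, lowest and most abundant member of each group, the 5 largest changes of isoform shares and of terminal exons, and the highest and lowest gene of each list; Snrnp70 and U2af1 exons were described after their values were seen. Protein sequences were not analysed here. Scripts ran in Python 3.11.15 with scipy 1.17.1, numpy 2.4.6, matplotlib 3.10.9 and pandas 2.3.3.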

Additional observations from a re-analysis of the deposited data

How the results depend on the processing

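No paired analysis was possible because each genotype has 1 library, and for the same reason no replicate could be left out. The alternatives were the pseudocount (0.1 or 5), the filter on low values (none, or 5 TPM), FPKM, a median-ratio scaling, a scaling without ribosomal protein genes, exon depth without the terminal exon, only bases in every transcript, another assignment of members to groups, and leaving out members with shared sequence. With FPKM in place of TPM every value shifted up, the median of all genes from -0.07 to 0.02: the medians became 0.10 for the 45 members, 0.36 for Sm, 0.35 for U1, 0.10 for U2 and 3' splice site, 0.035 for tri-snRNP, 0.12 for NTC and second-step, -0.041 for helicases and 0.15 for the other spliceosome genes, and 3 of 7 helicases and 4 of 7 tri-snRNP genes lay above 0. The number of members above the median of all genes was 30 with TPM and with FPKM. Without terminal exons 19 of 44 lay above 0 and the medians of all members and of the U2 group, near 0, became -0.03 and -0.03. With Snrnp200 among the helicases and Aqr, Ddx46 and Ddx23 elsewhere, the helicase median was -0.22. Against genes of like length, added after seeing the data, the medians were 0.10 for Sm, 0.10 for U1, 0.028 for tri-snRNP and -0.063 for helicases, so the tri-snRNP genes changed side. At a size of 0.25, also added, 12 members were counted in place of 0. Under the other settings these medians moved by less than the median counting half-width of a member, 0.08. Counts of isoform share changes and of terminal exons did not change under their alternatives. All 7 Sm genes lay above 0 under every setting of scale, filter and part of the gene.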
